A study of Mus musculus with 28 samples.

Results

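How the corticosterone effect on gene expression changed between day 6 and day 9 was examined in DC2 cells, an immortalized line of mouse epididymal epithelium, taken from the distal caput segment. The quantity described is the difference between corticosterone and vehicle libraries at day 9 minus the same difference at day 6, here called the interaction, in log2 units of CPM (read counts set relative to the size of each library). It rests on 16 of the 28 libraries of the series and was computed for all 13128 genes with a symbol in the deposited table. Confluent cells had received corticosterone at 500 ng/ml in ethanol, or ethanol alone at 0.1% as the vehicle, in fresh medium. That medium was exchanged at day 3, and again at day 6. The 4 groups, of 4 libraries each, were corticosterone at day 6 (3 days of recovery), vehicle at day 6, corticosterone at day 9 (6 days of recovery) and vehicle at day 9. All groups shared the line, the collagen coating and the medium with fetal bovine serum. The labels name 1 cell line and do not say whether replicates came from separate cultures, so p-values measure the spread between these libraries, which may be technical.

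Corticosterone is the main glucocorticoid of mice. It binds the glucocorticoid receptor, encoded by Nr3c1, which moves to the nucleus and binds glucocorticoid response elements near its target genes, while the enzyme encoded by Hsd11b2 inactivates the hormone. Hypoxia-inducible factors form another system met below: prolyl hydroxylases such as those of the Egln genes mark these factors for degradation when oxygen is plentiful, and the factors otherwise raise genes of glycolysis, angiogenesis and mitochondrial turnover. The caput epithelium of the epididymis secretes much of the fluid and protein in which sperm mature.

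The normalized values of the 16 libraries, taken back from the log, summed to between 972700 and 1038000 CPM, and counts, and so the depth, are unknown. Of the epithelial markers examined, Krt18 lay between 3.63 and 4.87 log2 CPM and Cdh1 between 1.81 and 4.0. Krt8 was lower, between -0.14 and 2.49, and so was Krt7, between -0.40 and 2.72. Epcam and Krt19 had medians of -0.54 and -0.33, under 1 CPM. Of genes marking other cell types, 3 of 14 for macrophages and leukocytes, 7 of 11 for fibroblasts, 5 of 8 for smooth muscle and 5 of 9 for endothelium were in the table. Principal components of the 16 libraries set the groups apart along the first component (55.1% of the variance), with corticosterone at day 6 between 43.8 and 57.5, vehicle at day 6 between -21.1 and -18.0, corticosterone at day 9 between -4.4 and -2.1, and vehicle at day 9 between -32.0 and -27.7. Corticosterone replicate 6 of day 6 stood apart from its group: its mean over 31 glucocorticoid receptor targets was 5.41 log2 CPM, below 5.92 to 5.96 in the other libraries of that group. The main counts over all genes are given with and without it, and so are the named genes whose class it changes. Counts by list and of changes of at least 2-fold are given with it only.

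The corticosterone effect shrank between the days. By limma with Benjamini-Hochberg adjusted p under 0.05, which is what "called" means here, corticosterone was higher than vehicle for 3002 genes (22.9% of those tested) and lower for 3192 (24.3%) at day 6. At day 9 it was higher for 1849 genes (14.1%) and lower for 1887 (14.4%). Leaving out corticosterone replicate 6 of day 6 gave 2922 higher and 3069 lower at day 6, and 1863 and 1899 at day 9. The root mean square effect over all genes was 0.65 log2 units at day 6 and 0.38 at day 9. The interaction was called for 4062 genes (30.9%), higher at day 9 for 2101 (16%) and lower for 1961 (14.9%). Without corticosterone replicate 6 of day 6 these were 2090 and 2008 genes. Effects of the 2 days correlated across genes at r = 0.56 (Spearman rho 0.38), given as a description, since genes are not independent replicates and within a day all effects share their 8 libraries. The median standard error of the interaction was 0.13, and the median 95% interval, not adjusted for the number of genes, spanned 0.26 to either side. A call took a larger change: Ssbp4, with a standard error of 0.13, was just inside the threshold at -0.33.

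Genes were sorted by which of the tests they passed. An effect faded where it was called at day 6 and the interaction was called in the opposite direction, while the day 9 effect was either still called on the same side or no longer called on any. It persisted where it was called on both days in the same direction and the interaction was not called, reversed where it was called on both days in opposite directions, grew where it was called on both days and the interaction had its sign, and was late where it was called at day 9 but not at day 6 with a called interaction. Of the 6194 genes called at day 6, 2821 faded (45.5%), 1337 persisted (21.6%), 418 reversed (6.75%), 72 grew (1.16%) and 1546 remained undecided (25%), since day 9 was not called and neither was the interaction. As shares of all genes tested, faded genes made up 21.5%, persisted 10.2%, reversed 3.18%, grown 0.548% and the 573 late genes 4.36%. The class counts of each list below are to be set beside these shares. The same day 6 values enter the first call and the interaction, so genes picked for a large day 6 effect lean toward fading.

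Among the 990 genes with a called change of at least 2-fold at day 6, 710 faded (71.7%), 155 persisted (15.7%), 27 reversed (2.73%), 3 grew and 95 were undecided. Their median day 9 effect was 26.9% of the day 6 effect on the log2 scale, with quartiles of 6.84 and 50.3%. Under 25% of the effect was left for 470 of them, 25 to 75% for 413 and over 75% for 107.

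**Figure D1:**
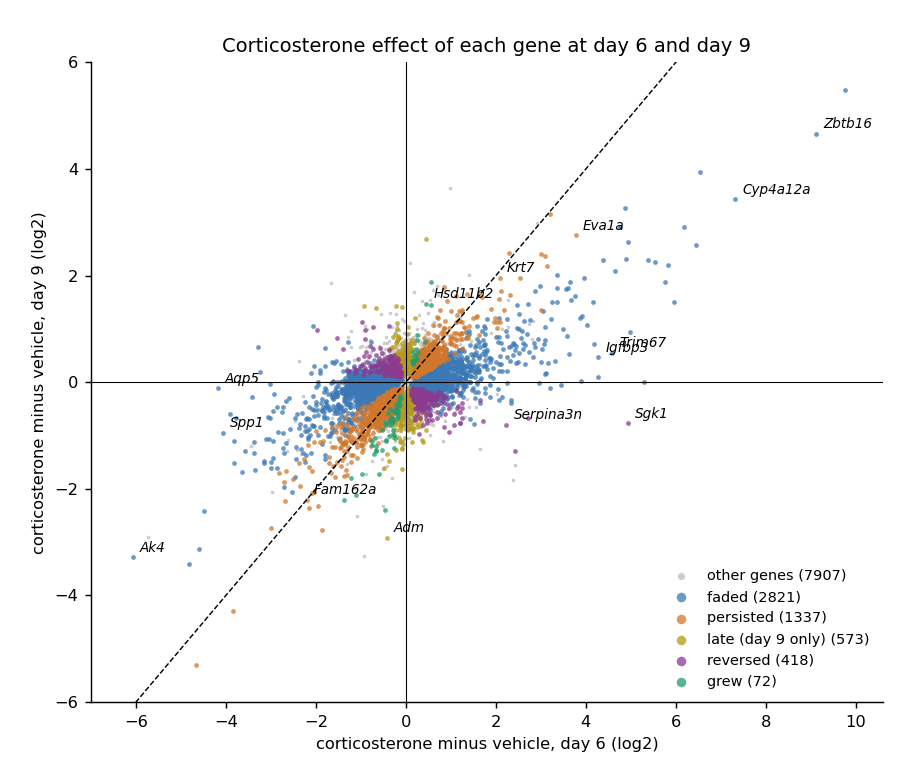
Each point is a gene; the horizontal axis gives corticosterone minus vehicle at day 6 and the vertical axis the same difference at day 9, both in log2 units, with colours for the class and the dashed line where both are equal. Most genes with a large day 6 effect lie between the horizontal axis line and the dashed line, as for Trim67 (4.58 at day 6, 0.55 at day 9), while Sgk1 lies on the other side of zero at day 9 (4.94 and -0.77).

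Most of the movement was in the corticosterone libraries. Between day 6 and day 9, 6505 genes (49.6%) changed in the corticosterone libraries and 1029 (7.84%) in the vehicle libraries, with root mean square changes of 0.55 and 0.25 log2 units. The count in the corticosterone libraries was 6247 without replicate 6 of day 6. Of the 4062 genes with a called interaction, 3332 changed between the days in the corticosterone libraries alone, 132 in the vehicle libraries alone, 415 in both and 183 in neither. The corticosterone libraries moved further for 97.4% of faded genes, 94.5% of reversed and 69.8% of late genes. For grown genes this was 22.2%: in 56 of 72, or 77.8%, the vehicle libraries moved further.

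**Figure D2:**
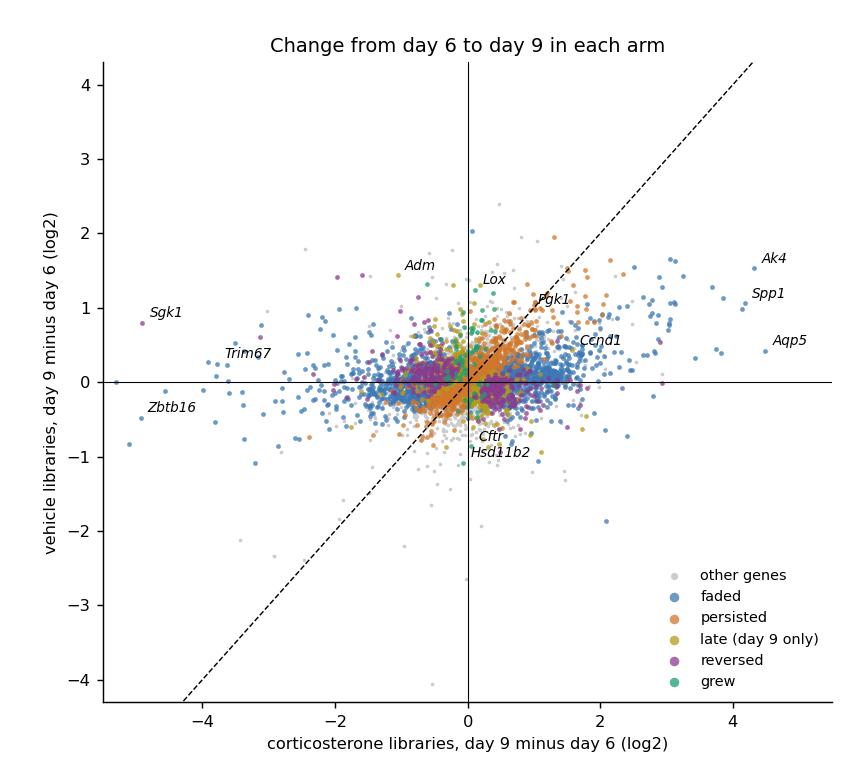
Each point is a gene; the horizontal axis gives day 9 minus day 6 in the corticosterone libraries and the vertical axis the same change in the vehicle libraries, in log2 units, with colours for the class and the dashed line where both arms moved alike. Faded and reversed genes spread along the horizontal axis (Aqp5, 4.49 and 0.42), persisted genes lie near the dashed line (Pgk1, 0.94 and 0.97), and Lox and Hsd11b2 lie near the vertical axis.

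Glucocorticoid receptor targets were raised at day 6 and mostly back at, or below, vehicle by day 9. Of 31 measured targets of a textbook list, 21 were higher and 4 lower at day 6, against 4 higher and 13 lower at day 9, and the median effect was 0.70 at day 6 and -0.19 at day 9, where all genes had medians of -0.002 and 0.003. By class, 13 faded (41.9%, against 21.5% of all genes), 7 reversed (22.6%, against 3.18%), 3 were late, 2 persisted, 4 were undecided and 2 were not called. Between the days the corticosterone libraries of these genes moved by a median of -0.74 and the vehicle libraries by 0.09. The median interaction was -0.90, and -0.99 without corticosterone replicate 6 of day 6.

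Fkbp5 encodes a chaperone that restrains the receptor. It had 9.19, 9.16, 9.13 and 8.32 log2 CPM in corticosterone libraries and 6.49, 6.34, 6.20 and 6.34 in vehicle libraries at day 6, and 6.92, 6.85, 6.97 and 6.90 in corticosterone libraries and 6.11, 6.26, 6.19 and 6.09 in vehicle libraries at day 9. Corticosterone libraries were above all vehicle libraries on both days, by 2.61 ± 0.12 (SE) at day 6 and 0.74 ± 0.12 at day 9. The interaction was -1.86 ± 0.17 (adjusted p = 5.42e-09). Tsc22d3, the anti-inflammatory leucine zipper protein GILZ, had an effect of 2.45 at day 6 and 0.36 at day 9. The day 9 value was not called (adjusted p = 0.06), although its 4 corticosterone libraries, 4.79 to 4.87, lay above the vehicle libraries, 4.42 to 4.53. Without corticosterone replicate 6 of day 6 the same 0.36 had an adjusted p of 0.000409. Zbtb16, a zinc finger repressor, had a mean of 63.6 CPM with corticosterone and 0.12 CPM with vehicle at day 6, and 2.02 CPM with corticosterone and 0.0801 CPM with vehicle at day 9. Its vehicle values lie at or near the lowest value of the table, so its log2 effects of 9.12 and 4.66 depend on the prior count that the authors added, and both were called.

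Sgk1, a kinase that regulates sodium channels, had the largest interaction of the genes with a mean of at least 1 log2 CPM. It had 9.25, 9.42, 9.05 and 7.20 log2 CPM in corticosterone libraries and 3.46, 3.95, 3.74 and 4.01 in vehicle libraries at day 6. At day 9 it had 4.10, 3.77, 3.94 and 3.49 in corticosterone libraries and 4.80, 4.45, 4.42 and 4.67 in vehicle libraries. The groups did not overlap on either day, and their order turned. The interaction was -5.71 ± 0.40 (adjusted p = 4.93e-11), and -6.22 without corticosterone replicate 6 of day 6. The day 9 effect, -0.77 (adjusted p = 0.0435), sat close to the threshold: it was not called in the fit to the 16 libraries alone (0.0929), and left the call when any of 7 of the 8 day 9 libraries was left out, with corticosterone replicate 3 the exception. Per1, a clock gene with a glucocorticoid response element, had an effect of 1.66 at day 6 and -0.34 at day 9 (adjusted p = 0.00282). Lcn2, an iron-siderophore binding protein of innate immunity, had effects of 2.73 and -0.66, and the day 9 call was lost in each of the 8 fits without a day 9 library (adjusted p 0.0513 to 0.0764). Klf9, a transcription factor, and Glul, glutamine synthetase, had effects of 1.60 and 3.17 at day 6. Their day 9 effects, -0.19 and 0.35, were not called (adjusted p = 0.159 and 0.103), but were called without corticosterone replicate 6 of day 6 (adjusted p = 0.042 and 0.00886), which makes Klf9 a reversal.

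The promoters of Sgk1 and Lcn2, the targets with the largest called interactions under the naming rule, are shown for the element the receptor binds. They are RefSeq sequences of the build GRCm38.p6, from 250 bases before the start site up to it, and capitals mark matches to ACANNNTGT, the core of the glucocorticoid response element, or to ACGTG, the core of the hypoxia response element, on either strand. Of the 6 Sgk1 windows in the table, only 2 hold a match to either core. The one holding most matches is printed (chr10:21993640-21993889, + strand), and Lcn2 has 1 window (chr2:32387740-32387989, - strand).
Sgk1: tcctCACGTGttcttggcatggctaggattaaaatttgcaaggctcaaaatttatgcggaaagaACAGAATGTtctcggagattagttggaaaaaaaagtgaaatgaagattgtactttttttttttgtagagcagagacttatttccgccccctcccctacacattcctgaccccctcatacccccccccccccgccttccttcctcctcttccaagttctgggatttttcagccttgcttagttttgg
Lcn2: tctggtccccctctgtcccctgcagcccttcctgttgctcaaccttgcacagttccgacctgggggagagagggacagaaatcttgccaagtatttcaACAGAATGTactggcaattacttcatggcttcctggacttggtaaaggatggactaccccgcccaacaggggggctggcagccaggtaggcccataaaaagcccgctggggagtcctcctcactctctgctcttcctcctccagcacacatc
In Sgk1 the core is flanked by aga and tct, the outer letters of the textbook palindrome, and the CACGTG near its 5′ end reads ACGTG on both strands. ACANNNTGT was in 6 of 38 windows of the receptor target list (15.8%). It was in 6.4% of windows of genes whose rise faded and 3.39% of those whose fall faded. For reversed genes it was in 7.18% of windows of rises and 6.54% of windows of falls. Of the windows of all tested genes 4.34% held it, and of all promoter windows, of tested genes or not, 6.85%. Of the tested genes, 10074 had a window. A match is a description and not a binding site.

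Of 13 genes of the receptor complex and of hormone inactivation 3 were higher and 5 lower at day 6. For 6 of them the interaction was called (46.2%, against 30.9% of all genes), and it was positive in each. Nr3c1 had 7.08, 7.03, 7.10 and 7.22 log2 CPM in corticosterone libraries and 8.09, 8.11, 8.01 and 8.16 in vehicle libraries at day 6, and 7.67, 7.71, 8.0 and 7.78 in corticosterone libraries and 8.12, 8.02, 8.08 and 8.20 in vehicle libraries at day 9. Corticosterone libraries were below all vehicle libraries on both days, by less at day 9. The effect was -0.98 at day 6 and -0.31 at day 9, and the interaction was 0.67 ± 0.14 (adjusted p = 0.000639); the day 9 call was lost without any of 3 of the day 9 libraries (adjusted p up to 0.0705). Hsp90ab1, a chaperone of the unliganded receptor, had an effect of -0.42 at day 6 and 0.17 at day 9, the second called in the full fit only narrowly (adjusted p = 0.017; 0.0961 without vehicle replicate 6 of day 9). Hsd11b2, the inactivating enzyme, is described with the grown genes.

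Circadian clock genes, several of which are receptor targets, split between classes: of 18 measured, 7 faded, 4 reversed, 3 persisted, 1 grew and 1 was late. Their median effect was 0.16 at day 6 and -0.21 at day 9, and 10 of 18 were lower at day 9. Nfil3, a repressor of D-box genes, had an effect of 1.20 at day 6 and -0.56 at day 9, with no overlap of groups on either day. Per2 had 1.09 and 0.13. Hlf, a D-box activator, had effects of 0.57 and 0.54.

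**Figure D3:**
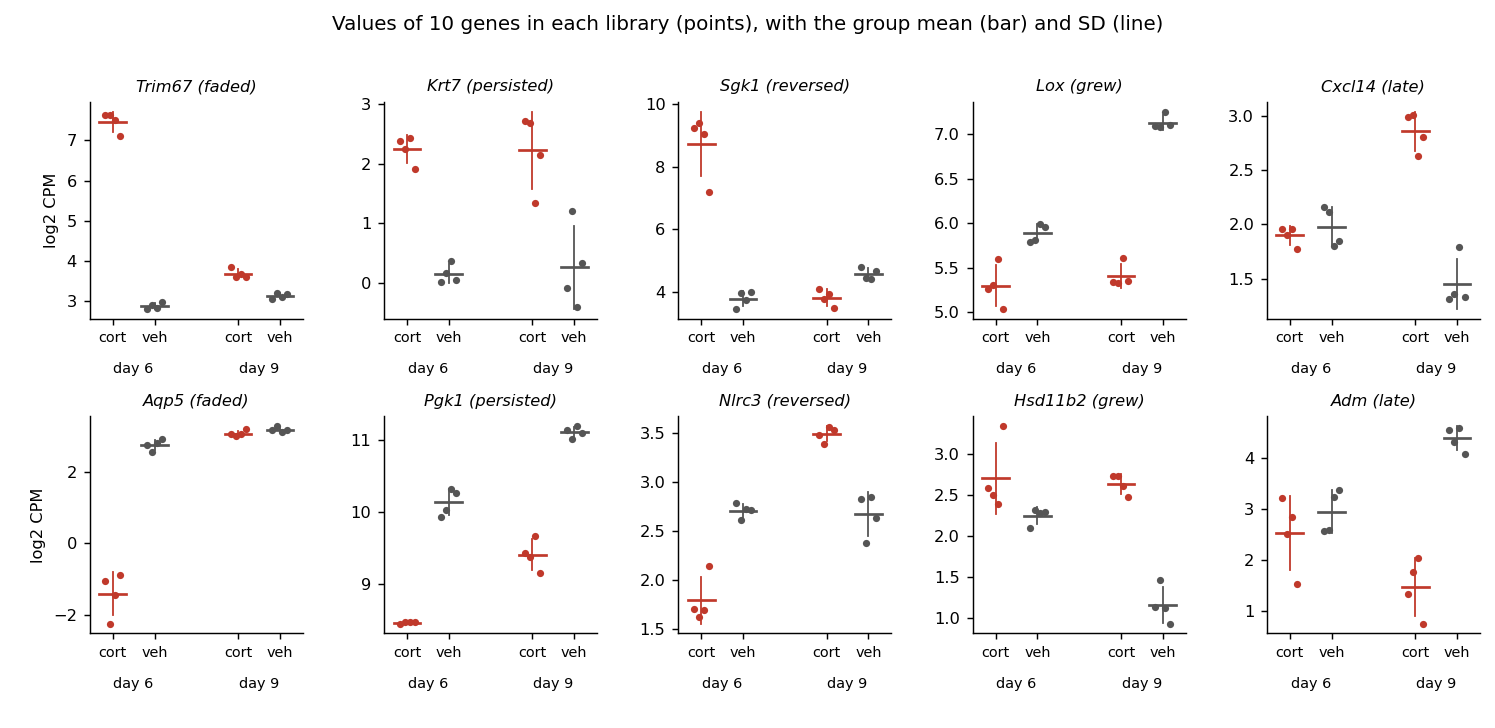
Log2 CPM of 10 genes in each library, with corticosterone libraries in red to the left of vehicle libraries in grey at day 6 and at day 9; bars are group means and lines 1 SD. Trim67 and Aqp5 come together at day 9, Krt7 and Pgk1 stay apart, Sgk1 and Nlrc3 change sides, and Lox and Hsd11b2 separate further as the vehicle libraries move.

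Of the 2821 faded effects, 1333 were rises and 1488 falls; 2187 were no longer called at day 9, and 634 still were, with a median of 40.3% of the day 6 effect left. The faded rises with the largest interactions lay across unrelated families. Trim67, a ubiquitin ligase best known from neurons, had 7.62, 7.62, 7.51 and 7.10 log2 CPM in corticosterone libraries and 2.81, 2.91, 2.84 and 2.99 in vehicle libraries at day 6, and 3.85, 3.6, 3.69 and 3.61 in corticosterone libraries and 3.07, 3.21, 3.1 and 3.17 in vehicle libraries at day 9. It stayed above vehicle in every library, by 0.55 (adjusted p = 0.000139) where it had been 4.58. Cyp4a12a, a fatty acid hydroxylase, averaged 52.2 CPM with corticosterone and 0.311 CPM with vehicle at day 6, and 5.71 CPM with corticosterone and 0.528 CPM with vehicle at day 9. Igfbp3 and Igfbp4, binding proteins of insulin-like growth factors, had effects of 4.27 and 3.09 at day 6. At day 9 Igfbp3 had 0.47 (adjusted p = 0.0308, a call that 9 of the alternatives tried did not make) and Igfbp4 had 0.16, not called (adjusted p = 0.786). Ifi207, of an interferon-inducible family, had 3.62 and 0.53, and Kcnd3, a potassium channel, 2.96 and -0.01. Cyp4a12a and Ifi207 have close copies in the genome, between which reads can be split.

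Among the faded falls with the largest interactions, Aqp5, Mgp and Samd5 were no longer called at day 9. Aqp5, a water channel of secretory epithelia, had -1.07, -2.25, -1.44 and -0.87 log2 CPM in corticosterone libraries and 2.77, 2.57, 2.81 and 2.92 in vehicle libraries at day 6, and 3.06, 3.01, 3.06 and 3.20 in corticosterone libraries and 3.18, 3.29, 3.14 and 3.18 in vehicle libraries at day 9. The groups were far apart at day 6 and overlapped at day 9 (effect -0.11, adjusted p = 0.722), and the interaction was 4.07 ± 0.28 (adjusted p = 3.33e-11). Mgp, an inhibitor of calcification, had effects of -3.23 and 0.20. Samd5 had -3.03 and -0.04. Spp1, the matrix protein osteopontin, had -4.06 and -0.95, and Cd300lb, an immune receptor, -3.90 and -0.60; both were still called at day 9, at adjusted p = 0.0247 and 0.0353, and neither call held without some single day 9 libraries. Values of Aqp5, Mgp and Cd300lb with corticosterone at day 6 were under 1 CPM, where fold changes depend on the authors' prior count.

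Genes of DNA replication and mitosis had the largest faded share of the lists with at least 10 measured genes. All 46 measured members were lower with corticosterone at day 6 and all 46 rose in the corticosterone libraries between the days, by a median of 1.21, against a median change of 0.09 in the vehicle libraries. Of the 46, 40 faded (87.0%), 5 reversed and 1 was undecided. The median effect was -1.08 at day 6 and -0.02 at day 9. Plk1, a mitotic kinase, had 3.93, 3.75, 3.88 and 3.99 log2 CPM in corticosterone libraries and 5.29, 5.19, 5.16 and 5.10 in vehicle libraries at day 6, and 5.49, 5.41, 5.40 and 5.42 in corticosterone libraries and 5.33, 5.14, 5.29 and 5.08 in vehicle libraries at day 9. Every corticosterone library was below the vehicle libraries at day 6 and above them at day 9. Its effect was -1.30 at day 6 and 0.22 at day 9 (adjusted p = 0.025, above 0.05 without any of 3 day 9 libraries). Cenpe, a kinetochore motor, had -1.07 and 0.43, Kif20a, a kinesin of cytokinesis, -1.26 and 0.22, and Ccnb2, a mitotic cyclin, -1.24 and 0.20, the last not called at day 9 (adjusted p = 0.133). In these bulk libraries, fewer cells in cycle and less RNA per cycling cell cannot be told apart. Ccnd1, the G1 cyclin D1, was late instead: it had -0.29 at day 6 (adjusted p = 0.0968) and 0.85 at day 9 (adjusted p = 5.23e-05).

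Matrix and inflammatory genes were lower at day 6 and partly recovered. Of 28 extracellular matrix genes, 20 were lower at day 6 and 11 at day 9; 13 faded, 4 persisted and 2 reversed, and the median effect was -0.43 at day 6 and -0.12 at day 9. Lamb1, a laminin chain, had -1.24 and -0.02. Col1a1, a chain of type I collagen, had -1.82 and -0.64. Of 24 inflammatory and chemokine genes, 16 were lower at day 6 and 15 at day 9, and 12 faded, with 9 of these still called. Vcam1, an adhesion molecule, averaged 7.89 CPM with corticosterone and 79.3 CPM with vehicle at day 6, and 54.7 CPM with corticosterone and 137.7 CPM with vehicle at day 9 (interaction 2.05 ± 0.21, adjusted p = 3.66e-08). Cxcl10, a chemokine, had effects of -1.96 and -0.61. The 3 macrophage and leukocyte markers in the table were lower at day 6, and all 3 interactions were called. Their summed level was 36.2 to 45.4 CPM with corticosterone and 92.6 to 103.7 CPM with vehicle at day 6, and 91.6 to 95.4 CPM with corticosterone and 133.3 to 149.3 CPM with vehicle at day 9. At day 9, 1 of the 3 was called lower, and their median effect was 0.10. Cd68 then averaged 46.75 CPM with corticosterone and 98.47 CPM with vehicle, whereas Cd14 averaged 45.43 CPM with corticosterone and 42.34 CPM with vehicle. The other 11 of 14, among them Ptprc and Adgre1, were not in the table, and the part of these markers in the result was not tested.

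Interferon-stimulated genes and genes of the MAP kinase pathway were also mostly lower on both days. Of 40 interferon-stimulated genes, 26 were lower at day 6 and 28 at day 9. By class, 16 persisted (40.0%, against 10.2% of all genes) and 8 faded (20%, near 21.5%). The median was -0.39 at day 6 and -0.54 at day 9, the second -0.34 with 5 added to CPM. Rsad2, an antiviral enzyme, was among the faded, with -2.96 and -1.42. Of 28 MAP kinase feedback and immediate early genes, 19 were lower at day 6 and 20 at day 9; 11 faded, 9 persisted, 4 were late and 1 grew. Egr1, an immediate early transcription factor, had an effect of -0.97 at day 6 and -0.93 at day 9, and its interaction of 0.04 had a 95% interval of -0.26 to 0.35. Etv4, a transcription factor downstream of growth factor receptors, had -3.65 and -1.69. Fosb, an AP-1 subunit, was late, with -0.08 at day 6 and -1.24 at day 9.

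**Figure D4:**
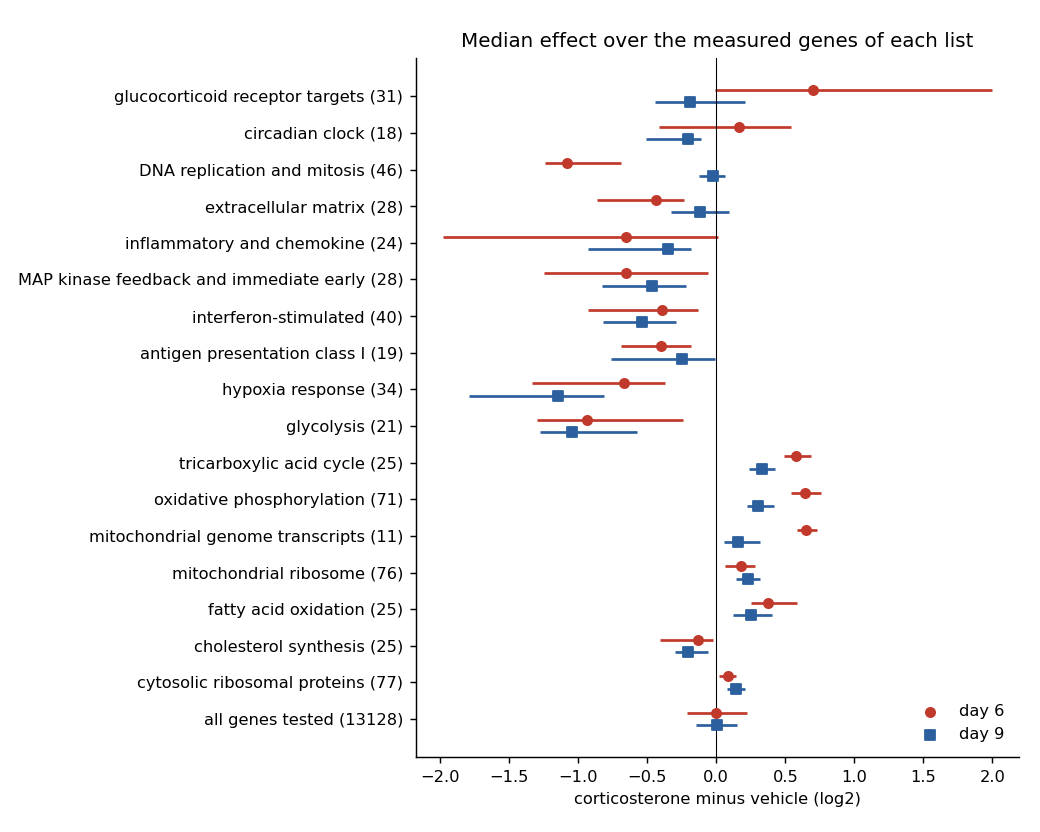
For each gene list, with the number of measured genes in brackets, the point is the median corticosterone minus vehicle effect in log2 units and the line runs between the quartiles, with day 6 as circles above day 9 as squares. The median of DNA replication and mitosis is -1.08 at day 6 and -0.02 at day 9, whereas that of the hypoxia response is -0.67 and -1.15.

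The persisted class held 636 rises and 701 falls. A missing call of the interaction does not show that an effect held. For 1091 of the 1337 genes the 95% interval of the interaction lay within a 1.5-fold change. That margin is wider than the median day 6 effect of the class, 0.41 log2 units for rises and -0.42 for falls. It was also met by 856 of the 2821 faded genes, so it does not show that an effect held either. The persisted rises with the largest effects on both days mostly had wide intervals. Krt7, a keratin of simple epithelia, had 2.38, 2.24, 2.43 and 1.91 log2 CPM in corticosterone libraries and 0.02, 0.17, 0.37 and 0.05 in vehicle libraries at day 6, and 2.72, 2.68, 1.33 and 2.15 in corticosterone libraries and -0.09, 1.20, -0.40 and 0.34 in vehicle libraries at day 9. The groups were apart on both days, with effects of 2.09 and 1.96, and the interval of the interaction was -1.04 to 0.79. Eva1a, a membrane protein tied to autophagy, had 3.78 and 2.76, and Coro2a, an actin-binding coronin, 3.14 and 2.18. Actr3b, a subunit of actin-nucleating complexes, had 2.53 and 1.96, and Lin7a, a polarity scaffold, 2.08 and 1.57. Point estimates of the interaction were negative for all of these, and it was called for Eva1a, Coro2a, Actr3b and Lin7a with 5 added to CPM before the log (adjusted p = 4.67e-06, 0.00731, 0.00134 and 0.015). For Actr3b and Lin7a it was also called without corticosterone replicate 6 of day 6 (-0.66 and -0.75). Their rises were called on both days, and whether the change between the days is called depends on the processing.

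The persisted falls with the largest effects included genes of the hypoxia response and glycolysis. Pgk1, a glycolytic kinase, had 8.45, 8.47, 8.47 and 8.47 log2 CPM in corticosterone libraries and 9.94, 10.03, 10.31 and 10.26 in vehicle libraries at day 6, and 9.43, 9.37, 9.67 and 9.15 in corticosterone libraries and 11.14, 11.02, 11.19 and 11.09 in vehicle libraries at day 9. The effect was -1.67 at day 6 and -1.70 at day 9, and the interval of the interaction was -0.29 to 0.22. Between the days Pgk1 changed by 0.94 in corticosterone libraries and 0.97 in vehicle libraries. In CPM, Pgk1 averaged 353.8 with corticosterone and 1131 with vehicle at day 6, and 684.7 with corticosterone and 2210 with vehicle at day 9. Fam162a, a mitochondrial protein induced by hypoxia, had -2.20 and -2.21. Bnip3, a receptor for mitophagy, had -1.95 and -2.33, and its interaction was called without corticosterone replicate 6 of day 6 (-0.50, adjusted p = 0.0227), without corticosterone replicate 5 of day 9 (-0.53, adjusted p = 0.01) and with library weights (-0.53, adjusted p = 0.00666). Cables1, a cyclin-dependent kinase adaptor, had -2.16 and -2.36, and its interaction was called with 5 added to CPM (-0.40, adjusted p = 0.000724). Atg9b, an autophagy protein, had -2.35 and -1.95; its interaction of 0.40 was called without corticosterone replicate 3 of day 6 (0.51, adjusted p = 0.0235) and turned to -0.37 with 5 added to CPM (adjusted p = 0.000156).

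Genes of the hypoxia response lay further below vehicle at day 9 than at day 6. Of 34 measured genes, 28 were lower with corticosterone at day 6 and 30 at day 9, and the median effect was -0.67 at day 6 and -1.15 at day 9, after 0.13 at day 3, the end of the treatment. By class, 12 grew (35.3%, against 0.548% of all genes), 10 faded, 9 persisted and 2 were late. Between the days 17 of the 34 rose and 9 fell in corticosterone libraries, with a median change of 0.19, while 27 rose in vehicle libraries, with a median of 0.65. The 12 grown falls were Egln1, P4ha2, Plod1, Vegfa, Slc2a1, Mxi1, Ero1a, Bhlhe40, Lox, Ankzf1, Gbe1 and Jmjd6, with effects between -0.16 (Ankzf1) and -1.38 (Ero1a) at day 6 and between -0.63 (Ankzf1) and -2.21 (Ero1a) at day 9. Vegfa, the angiogenic growth factor, had -0.44 and -1.10, and Slc2a1, the glucose transporter GLUT1, -0.66 and -1.28. Adm, the vasodilator peptide adrenomedullin, had the largest late fall. It had 3.22, 2.50, 2.84 and 1.51 log2 CPM in corticosterone libraries and 2.57, 2.59, 3.23 and 3.36 in vehicle libraries at day 6, and 1.32, 1.75, 2.04 and 0.75 in corticosterone libraries and 4.54, 4.31, 4.59 and 4.07 in vehicle libraries at day 9. The groups overlapped at day 6 and were apart at day 9, and at day 3 its effect had been 4.35. The interaction was -2.49 ± 0.49 (adjusted p = 0.000289).

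Not all members followed. Ak4, a mitochondrial adenylate kinase, had the largest fall at day 6, with 0.224 CPM with corticosterone and 13.4 CPM with vehicle, and 4.15 CPM with corticosterone and 38.2 CPM with vehicle at day 9. Its log2 effect of -6.08 at day 6 compared with -3.28 at day 9, a faded fall, but its corticosterone values at day 6 lay near the lowest of the table, and the interaction of 2.79 turned to -0.45 with 5 added to CPM. Ankrd37, a target of hypoxia-inducible factors, had -4.48 and -2.41, and its interaction of 2.08 was 0.41 and not called with 5 added to CPM (adjusted p = 0.0846). Selenbp1, a selenium-binding protein, went against the list, with a rise of 2.33 at day 6 and -0.33 at day 9, not called (adjusted p = 0.461). The promoters of Ak4 and Selenbp1, the list members with the largest called interactions, are shown for the hypoxia core ACGTG, in the same build and with the same capitals. All 4 Ak4 windows hold a match to either core. The one holding most is printed (chr4:101419453-101419702, + strand), and Selenbp1 has 1 window (chr3:94932833-94933082, + strand).
Ak4: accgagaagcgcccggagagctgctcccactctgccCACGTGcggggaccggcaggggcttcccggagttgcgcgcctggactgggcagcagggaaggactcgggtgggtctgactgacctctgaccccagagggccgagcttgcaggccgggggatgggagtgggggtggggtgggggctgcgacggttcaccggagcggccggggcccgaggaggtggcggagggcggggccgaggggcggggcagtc
Selenbp1: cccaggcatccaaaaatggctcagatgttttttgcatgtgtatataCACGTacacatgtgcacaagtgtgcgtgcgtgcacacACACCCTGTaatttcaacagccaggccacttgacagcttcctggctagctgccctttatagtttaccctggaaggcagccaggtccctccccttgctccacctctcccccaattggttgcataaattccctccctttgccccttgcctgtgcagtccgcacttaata
ACGTG was in 22 of 39 windows of the hypoxia list (56.4%) and in 24.9% of the windows of all tested genes. Within the list it was in 9 of 13 windows of grown members (69.2%), 7 of 14 of faded (50%) and 4 of 9 of persisted members (44.4%). It was in 27 of 62 windows of all grown falls (43.5%), which include those of the grown list members. The list was assembled from known targets of the factors that bind this core. The glucocorticoid core was in 6 of the 39 (15.4%).

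Most glycolysis genes were lower on both days as well. Of 21 measured genes 16 were lower at day 6 and 18 at day 9; 8 persisted, 6 faded with all 6 still called, 4 grew, 1 reversed and 1 was late. The median effect was -0.93 at day 6 and -1.04 at day 9. Eno1, an enolase, had -1.30 and -1.22 with an interval of the interaction from -0.14 to 0.29. Ldha, lactate dehydrogenase, had -2.24 and -1.49 and faded in part. Hk2, a hexokinase, had 6.66, 6.64, 6.41 and 6.52 log2 CPM in corticosterone libraries and 6.63, 6.69, 6.94 and 6.92 in vehicle libraries at day 6, and 6.49, 6.39, 6.71 and 6.39 in corticosterone libraries and 7.64, 7.47, 7.62 and 7.41 in vehicle libraries at day 9. Its corticosterone libraries stayed in the same range, the vehicle libraries rose, and the groups overlapped at day 6 alone. The interaction of Hk2 was -0.80 ± 0.14 (adjusted p = 6.99e-05), while its day 6 effect was not called without corticosterone replicate 6 of day 6 (-0.23, adjusted p = 0.0908). Aldoc, an aldolase, had -0.71 and -1.34.

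Genes of oxidative phosphorylation and of the tricarboxylic acid cycle were mostly higher with corticosterone, by less at day 9. Of 71 genes of oxidative phosphorylation 70 were higher with corticosterone at day 6 and 41 at day 9; 32 faded, 17 of them still called, and 24 persisted. The median effect was 0.64 at day 6 and 0.30 at day 9. Between the days 57 fell in corticosterone libraries and 1 fell in vehicle libraries. Ndufa4, a subunit of the respiratory chain, had 1.07 and 0.93, and Ndufb10, of complex I, had 0.91 at day 6 and 0.26 at day 9, not called (adjusted p = 0.0755). That day 9 effect of Ndufb10 was called in the fit to the libraries of days 6 and 9 alone (adjusted p = 0.00467). It was also called with library weights (0.28, adjusted p = 0.000271). Of 25 genes of the tricarboxylic acid cycle 23 were higher at day 6 and 20 at day 9, and 13 faded and 9 persisted. Pdha1, of the pyruvate dehydrogenase complex, had 8.03, 8.03, 8.05 and 7.88 log2 CPM in corticosterone libraries and 7.08, 7.16, 7.05 and 7.11 in vehicle libraries at day 6, and 7.45, 7.38, 7.40 and 7.42 in corticosterone libraries and 6.98, 7.06, 7.0 and 7.14 in vehicle libraries at day 9. The groups were apart on both days, by 0.90 and 0.36. Citrate synthase, Cs, had effects of 0.55 and 0.48. Pdk4, the kinase that switches pyruvate dehydrogenase off and a receptor target, had 2.38 and 0.52. Fatty acid oxidation genes, 25 in all, had a median of 0.37 at day 6 and 0.25 at day 9, with 10 faded and 8 persisted.

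Of 11 transcripts of the mitochondrial genome 10 were higher at day 6 and 4 at day 9, and 8 faded, though under quantile normalization the interactions of mt-Co2, mt-Nd1 and mt-Nd2 turned positive. mt-Co1, a subunit of cytochrome oxidase, had an effect of 0.74 at day 6 and 0.08 at day 9, with an interaction of -0.66 ± 0.07. Under quantile normalization the interaction of mt-Co1 was 0. That method gives a transcript that keeps its rank the same value in every library, so this 0 cannot show whether the effect changed. mt-Nd1, of complex I, had 0.59 and 0.50; its interaction of -0.09 was not called, and was 0.50 under quantile normalization. Nuclear genes for the mitochondrial ribosome kept a smaller effect: of 76, 32 were higher at day 6 and 38 at day 9, with medians of 0.18 and 0.23, and 20 persisted, 6 were late and 3 faded. Of 77 cytosolic ribosomal protein genes 66 were called on neither day nor for the interaction, and the median interaction was 0.08.

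**Figure D5:**
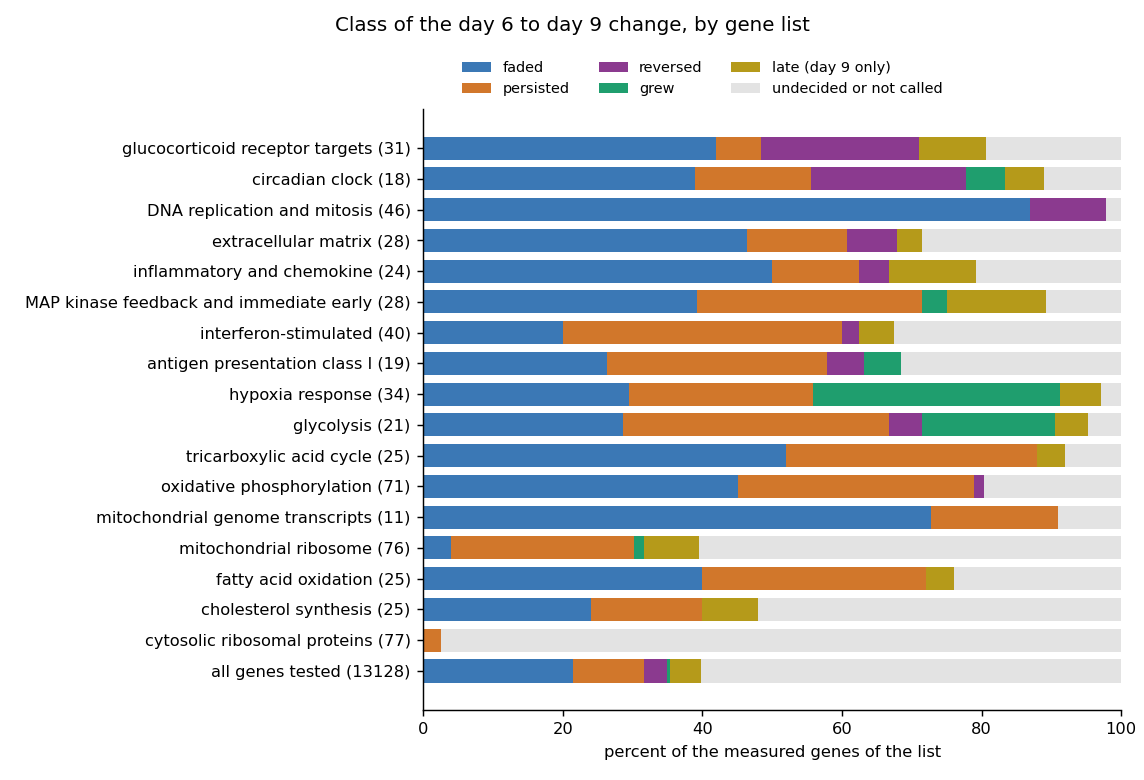
Bars give the percent of the measured genes of each list (number in brackets) in each class, with undecided and uncalled genes in light grey and all tested genes in the bottom bar. Faded genes fill 87.0% of the bar of DNA replication and mitosis, grown genes 35.3% of that of the hypoxia response and reversed genes 22.6% of that of the glucocorticoid receptor targets, against 21.5, 0.548 and 3.18% of all genes.

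Genes of retinoid metabolism and of the antioxidant response held some of the larger rises. Of 15 retinoid genes 7 faded (46.7%, against 21.5% of all genes), 6 of them still called, and 3 persisted (20%, against 10.2%). Aldh1a1, which makes retinoic acid, had 11.53, 11.55, 11.44 and 10.90 log2 CPM in corticosterone libraries and 6.97, 7.02, 6.97 and 6.97 in vehicle libraries at day 6, and 9.06, 9.00, 9.06 and 9.09 in corticosterone libraries and 6.68, 6.79, 6.68 and 6.88 in vehicle libraries at day 9. Corticosterone libraries were above all vehicle libraries on both days, by 4.37 and 2.30, and the interaction was -2.08 ± 0.13. Crabp1, a retinoic acid binding protein, had 3.35 and 1.76. Of 28 glutathione and antioxidant genes 12 faded (42.9%, against 21.5% of all genes), 3 persisted (10.7%, near 10.2%) and 3 reversed (10.7%, against 3.18%). Gclc, of glutathione synthesis, had 1.41 at day 6 and -0.00 at day 9, not called (adjusted p = 0.97). Nqo1, a quinone reductase, had -0.62 and 0.39, a reversal. Gsta3, a glutathione transferase from a family of close copies, had 4.89 and 2.32.

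Of 29 genes of the unfolded protein and ATF4 responses 10 faded (34.5%), 5 reversed (17.2%) and 4 persisted (13.8%), against 21.5, 3.18 and 10.2% of all genes. Chac1, which degrades glutathione, had 1.21 at day 6 and -0.20 at day 9, not called (adjusted p = 0.137), and Trib3, a pseudokinase, had 0.42 and -0.45. Of 30 lysosome genes 7 faded (23.3%) and 3 persisted (10%), close to the 21.5 and 10.2% of all genes, and 4 reversed; Ctsl, the protease cathepsin L, had 0.72 and -0.18. Of 25 cholesterol synthesis and uptake genes 6 faded (24%, near the share of all genes) and 4 persisted (16%), with medians of -0.14 at day 6 and -0.21 at day 9 after -0.93 at day 3. Of 19 genes of class I antigen presentation 6 persisted (31.6%, against 10.2% of all genes), 5 faded (26.3%, near 21.5%), 1 reversed and 1 grew. The grown fall was H2-K1, a class I heavy chain, with 5.30, 5.26, 5.26 and 5.18 log2 CPM in corticosterone libraries and 5.64, 5.63, 5.80 and 5.71 in vehicle libraries at day 6, and 5.29, 5.32, 5.37 and 5.32 in corticosterone libraries and 6.43, 6.36, 6.38 and 6.49 in vehicle libraries at day 9. Its groups were apart on both days, by -0.45 and -1.09, although reads of class I heavy chains can be split between near-identical genes.

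Of 13 measured genes of epididymal epithelium 4 faded (30.8%, against 21.5% of all genes), 3 persisted (23.1%, against 10.2%) and 1, Cftr, grew. Clu, the secreted chaperone clusterin, had -1.19 at day 6 and -0.14 at day 9, not called (adjusted p = 0.411), and Cst3, the protease inhibitor cystatin C, had 0.83 and 0.66. Of 16 markers of simple epithelium 5 persisted (31.2%, against 10.2% of all genes) and 3 faded (18.8%, near 21.5%). Cdh1, the adhesion protein E-cadherin, had -1.63 and -0.45, whereas Krt8, a keratin, had 1.12 and 1.62. All 7 measured genes of the cornified envelope were lower at day 6 and 3 at day 9; Sprr1a, a small proline-rich protein, had -3.82 and -1.10. Of 7 fibroblast markers 4 faded (57.1%, against 21.5% of all genes) and 1 reversed. With corticosterone 2 of them were higher and 5 lower at day 6, and 2 were higher and 2 lower at day 9. Their summed level was 650.6 to 702 CPM with corticosterone and 805.5 to 893.3 CPM with vehicle at day 6. At day 9 it was 914.5 to 963.8 CPM with corticosterone and 844.7 to 1074 CPM with vehicle. The part of these markers in the matrix result was not tested.

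The reversed class held 208 genes that were higher with corticosterone at day 6 and lower at day 9, and 210 with the opposite turn. Median effects were 0.34 at day 6 and -0.29 at day 9 for the first, and -0.30 and 0.24 for the second, so most reversals were small. Nlrc3, a regulator of innate immune signalling, had 1.71, 1.63, 1.70 and 2.15 log2 CPM in corticosterone libraries and 2.78, 2.61, 2.72 and 2.71 in vehicle libraries at day 6, and 3.48, 3.39, 3.56 and 3.53 in corticosterone libraries and 2.83, 2.38, 2.85 and 2.63 in vehicle libraries at day 9. Its vehicle libraries stayed in place and the corticosterone libraries passed them. The interaction was 1.73 ± 0.15 (adjusted p = 2.13e-09). Rrad, a small GTPase, had -0.79 and 0.68, and Igf1, insulin-like growth factor 1, -0.88 and 0.56. Adh7, an alcohol and retinol dehydrogenase, had -0.57 and 0.64, and Zfp239, a zinc finger protein, -0.54 and 0.55, a day 9 value that was not called without vehicle replicate 6 of day 9 (0.34, adjusted p = 0.157). In the other direction, Serpina3n, a secreted protease inhibitor of the acute phase, averaged 6.58 CPM with corticosterone and 1.37 CPM with vehicle at day 6, and 2.11 CPM with corticosterone and 3.67 CPM with vehicle at day 9. Cfap100, a cilium protein, had 0.95 and -0.94, and both arms moved, by -0.74 with corticosterone and 1.15 with vehicle. Amy1, an amylase, had 1.07 and -0.79, and Pdzd7, a scaffold of hair cells, 1.71 and -0.73. Amy1 and Serpina3n lie in families of close copies, between which reads can be split.

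Grown effects were few, 17 rises and 55 falls, and in most of them the vehicle libraries moved further. Hsd11b2, which inactivates corticosterone, had 2.58, 2.50, 2.39 and 3.33 log2 CPM in corticosterone libraries and 2.10, 2.32, 2.29 and 2.29 in vehicle libraries at day 6, and 2.73, 2.73, 2.61 and 2.47 in corticosterone libraries and 1.13, 1.47, 1.13 and 0.94 in vehicle libraries at day 9. Corticosterone libraries were above vehicle on both days, replicate 6 of day 6 the furthest; without it the day 6 effect of 0.45 was 0.24 and not called (adjusted p = 0.158), so that the rise counts as late. The vehicle libraries fell by 1.08 between them while the change of -0.06 with corticosterone was not called (adjusted p = 0.76). The interaction was 1.02 ± 0.23 (adjusted p = 0.00113), and 1.23 without that library, after an effect of -0.45 at day 3. Cftr, the chloride channel, had 0.55 and 1.46, with a vehicle change of -0.86. Wdr5b had 0.26 and 0.88. Among falls, Lox, which crosslinks collagen and elastin, had 5.26, 5.30, 5.59 and 5.04 log2 CPM in corticosterone libraries and 5.78, 5.82, 6.00 and 5.95 in vehicle libraries at day 6, and 5.34, 5.33, 5.61 and 5.35 in corticosterone libraries and 7.09, 7.08, 7.25 and 7.10 in vehicle libraries at day 9. Vehicle libraries rose by 1.24 and the change with corticosterone, 0.11, was not called (adjusted p = 0.31). Nptx1, a neuronal pentraxin, had -1.11 and -2.12, Ero1a, an oxidase of the endoplasmic reticulum, -1.38 and -2.21, and Epm2a, the glycogen phosphatase laforin, -0.97 and -1.72. Zbed5 was a reversal in which only the vehicle change, -0.52, was called: its effect was -0.44 at day 6 and 0.24 at day 9, a call that did not hold without some single day 9 libraries (adjusted p up to 0.133).

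The 573 late effects comprised 301 rises and 272 falls, of which 25 reached 2-fold. Cxcl14, a chemokine of epithelia, had 1.96, 1.91, 1.96 and 1.77 log2 CPM in corticosterone libraries and 2.16, 2.11, 1.80 and 1.84 in vehicle libraries at day 6, and 2.99, 3.01, 2.63 and 2.80 in corticosterone libraries and 1.32, 1.37, 1.79 and 1.33 in vehicle libraries at day 9. The groups overlapped at day 6 and were apart at day 9, as corticosterone libraries rose by 0.96 and vehicle libraries fell by 0.53. Fam135b had -0.22 at day 6 and 1.42 at day 9, and Nol4 -0.23 and 0.91. Tmprss9, a membrane protease, had -0.06 and -1.16, and Kctd15, a regulator of transcription factor AP-2, -0.38 and -1.48. For Kctd15 it was the vehicle libraries that rose, by 0.98, while the change of -0.11 with corticosterone was not called (adjusted p = 0.72).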

How the data were processed

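The deposited table holds log2 CPM per gene and library. The authors made it with kallisto, edgeR 3.40.1 and limma 3.54.0 on the build mm10, per the submitters' processing notes, which give these names without their roles; the annotation, the normalization method and the prior count are not given in the sources used here. Libraries came from TruSeq Stranded mRNA kits, per the labels' protocols. Counts were not used, so the depth, and with it counting error, is unknown. An entry with no symbol, 0.02674 to 0.06981% of the summed CPM, was left out, and 13128 genes remained. A filter of log2 CPM above 0 in at least 4 libraries removed 0 genes.

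The 28 libraries entered a single limma model with a mean for each of the 7 groups (limma 3.58.1, R 4.3.3, empirical Bayes with intensity trend, 21 residual degrees of freedom), and p-values were Benjamini-Hochberg adjusted over all genes, with 0.05 as the threshold. The groups thereby share 1 estimate of spread. Every adjusted p printed comes from this fit or a named alternative to it, and ± after an effect is the standard error. The code was tested on simulated data. Genes named for a class had a mean of at least 1 log2 CPM and corticosterone and vehicle groups that did not overlap at day 6 (for late genes, at day 9), and were the largest interactions of each class, or effects for persisted genes, together with fixed receptor genes and 2 to 4 genes per list. The gene groups and lists were chosen with earlier results of these data known. Grown members of the hypoxia list outside this rule, among them Vegfa, Slc2a1 and Ankzf1, were named after their values were seen. Promoter windows are from RefSeq, GRCm38.p6, matched by symbol for 10074 genes. Alternatives were other constants before the log, quantile normalization, another filter, days 6 and 9 alone, no trend, library weights, a stricter threshold, the replicate number as a block, and leaving out each library.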

Additional observations from a re-analysis of the deposited data

Results flagged for a closer look

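In 332 groups of 4 libraries, from 29 list means and the 54 genes named for their class or as fixed receptor genes, 1 library lay far from the others in 30 (9.04%), where chance gives about 1 in 20. Corticosterone replicate 6 of day 6 was that library for 11 of them. Its values in log2 CPM were 4.703 for Cyp4a12a (the others 5.827 to 6.015), 3.106 for Kcnd3 (4.393 to 4.496), 3.042 for Lin7a (3.93 to 4.012), 7.198 for Sgk1 (9.051 to 9.415), 8.315 for Fkbp5 (9.13 to 9.185) and 6.411 for Tsc22d3 (7.383 to 7.457). They were 4.407 for Fam162a (4.44 to 4.446), 5.651 for Bnip3 (6.111 to 6.158) and 2.145 for Nlrc3 (1.63 to 1.708). Its list means were 5.411 for glucocorticoid receptor targets (5.916 to 5.964) and 4.903 for the hypoxia response (5.105 to 5.135). In all but Fam162a, Bnip3 and the hypoxia mean, this library lay nearer to the vehicle libraries of day 6 than the rest of its group.

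Among other corticosterone libraries, Zbed5 had 3.031 in replicate 5 of day 6 (2.645 to 2.708) and the simple epithelium mean was 2.096 in replicate 3 of day 6 (2.13 to 2.133). At day 9, replicate 3 had 3.113 for Coro2a (2.422 to 2.535), and replicate 4 had 2.275 for Eva1a (2.485 to 2.523), 2.48 for Cfap100 (2.63 to 2.656), a mean of 6.626 for extracellular matrix (6.694 to 6.703) and 4.622 for MAP kinase genes (4.54 to 4.55). Replicate 5 of day 9 had 5.608 for Lox (5.326 to 5.348), and means of 7.594 for lysosome (7.65 to 7.655) and 2.243 for simple epithelium (2.466 to 2.504), and replicate 6 had a mean of 3.638 for interferon-stimulated genes (3.496 to 3.512).

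Among vehicle libraries of day 6, replicate 6 had -0.4339 for Igfbp3 (0.2979 to 0.3694) and a mean of 7.175 for receptor and hormone inactivation genes (7.271 to 7.281), replicate 3 had 2.098 for Hsd11b2 (2.285 to 2.316) and replicate 5 had 2.259 for Wdr5b (2.349 to 2.367). At day 9, replicate 5 had 1.793 for Cxcl14 (1.318 to 1.366) and 7.251 for Lox (7.077 to 7.1), and replicate 6 had means of 8.226 for cytosolic ribosomal proteins (8.076 to 8.097) and 6.446 for oxidative phosphorylation (6.26 to 6.284).

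The corticosterone effect differed between the days, by the limma test of the difference itself, with 2101 genes higher and 1961 lower at day 9. The entry with no gene symbol, used in no comparison, averaged 8.949 log2 CPM in corticosterone libraries (8.879 to 8.99) and 8.729 in vehicle libraries (8.676 to 8.757) at day 6, and 8.542 in corticosterone libraries and 8.563 in vehicle libraries at day 9.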

How the results depend on the processing

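Counts of genes with a called interaction stayed within 1.5 times under all alternatives run. The smaller classes moved: with library weights 805 genes reversed, 175 grew and 910 were late; at an adjusted p under 0.01, 170 reversed, 32 grew and 333 were late; and with the libraries of days 6 and 9 alone 114 grew. Under quantile normalization the interactions of mt-Co1 (0), mt-Co2 (0.09785), mt-Nd1 (0.4951) and mt-Nd2 (0.3963) lost their negative sign. That method sets values by rank, so the 0 of mt-Co1 cannot show whether its effect changed. With 5 added to CPM the interactions of Ak4 (-0.4503) and Atg9b (-0.3661) turned negative. The cause of the other sign changes was not tested. Leaving out each library in turn gave 1853 to 2090 higher and 1758 to 2008 lower interactions, 2491 to 2870 faded, 1203 to 1307 persisted, 313 to 438 reversed, 56 to 79 grown and 452 to 583 late genes, and 89.37 to 92.31% of called interactions in which the corticosterone libraries moved further. Without corticosterone replicate 6 of day 6, 2870 faded, 1243 persisted, 438 reversed, 57 grew and 553 were late, and the day 9 effects of Tsc22d3, Glul and Klf9 were called (adjusted p = 0.000409, 0.00886 and 0.042, limma). Of 211 named genes, the interaction kept its direction and call under every alternative in 167 and the day 9 effect in 160. Libraries with the same replicate number correlated by -0.0239 to 0.218, over 0.1 in 10 of 21 pairs, and 5 of 16 correlated best with their own number, so over the 4 groups the numbers were not taken to pair the libraries, although the 3 pairs of corticosterone with vehicle at day 6 (0.11 to 0.156) and of corticosterone at day 9 with day 6 (0.129 to 0.209) were over 0.1; with the replicate block as a fixed term 1994 interactions were higher and 1896 lower, and the day 9 calls of Lcn2 (adjusted p = 0.0501) and Zbed5 (0.051) were lost. Each list median was compared under each alternative, and 21 of these comparisons moved by more than the spread between replicates, some medians more than once. In fits without 1 library 4 moved and 668 did not, and in the other alternatives 17 moved and 529 did not. The interaction medians of glycolysis (0.0801 under quantile normalization) and MAP kinase genes (-0.0261 without vehicle replicate 6 of day 9) moved to the other sign. That of inflammatory genes moved to 0.0934 with 5 added to CPM. Depth is unknown, and effects of genes under about 1 CPM depend on the constant added before the log.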
